A study of Mus musculus with 9 samples.

Results

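The genes described here are Nrf2 (gene symbol Nfe2l2), the proteins that hold it back or compete with it (Keap1, Cul3, Bach1), the adaptor Sqstm1, the small Maf proteins (Maff, Mafg, Mafk), and its target genes Nqo1 and Osgin1. These 10 genes were chosen by symbol from the 18875 genes of the deposited expression table. None of the 10 fell below the filter on low values (1 TPM in 3 or more libraries), so each was tested. TPM is the share of a gene among all transcripts of a library after its length is taken into account, so levels of different genes can be compared.

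Expression was measured by mRNA sequencing in 9 libraries of whole lung; the mice were wild type and of the inbred BALB/c strain. In the long-term group (3 libraries), mice received PM2.5, fine airborne particulate matter, into the nose at 10 mg/kg, 6 times with 3 days between doses. In the short-term group (3 libraries), mice received 1 dose of 10 mg/kg. The PBS group (3 libraries) is labelled as a long-term exposure to PBS, the vehicle, so it does not match the short-term group in duration. No gene was deleted or added in any group. The labels do not say that the libraries of a group came from separate mice, and if they did not, the p-values cover technical spread alone.

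Nrf2 is a transcription factor of the cap'n'collar family. In resting cells Keap1, a sensor rich in reactive cysteines, presents Nrf2 to a ubiquitin ligase built on Cul3, and Nrf2 is degraded. Oxidants and electrophiles modify Keap1, Nrf2 then accumulates, pairs with a small Maf protein and binds antioxidant response elements beside genes of antioxidant defence and detoxification. Bach1 also pairs with small Mafs and represses many of the same genes, and Sqstm1 (p62) can bind Keap1 and take it into autophagy. Much of this control acts on the proteins, which mRNA levels do not show. In the lung the pathway is known for its protection of airway and alveolar cells against inhaled oxidants.

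The promoter windows of the members were searched because several of these genes are themselves known to carry antioxidant response elements. Each window of 300 bases, from RefSeq on GRCm38.p6, covers 250 bases before a start site and 50 from it on, and all 10 members had 1 or more windows (12 in all, 3 of them of Maff). The antioxidant response element core was searched as TGACNNNGC on both strands, which reads GCNNNGTCA on the reverse strand. It matched in 4 of the 12 windows, those of Nfe2l2, Mafg, Mafk and 1 window of Maff, and in 12.4% of all 32851 windows. The Maf recognition element sequence GCTGAGTCA, which fixes every base and is also a match to the core, was in none of the members' windows and in 0.454% of all windows. A match is a run of letters and was not tested for binding. Sequence outside the windows was not searched, so a gene without a match may carry the element elsewhere. The matched stretches are shown because these genes encode Nrf2 and all its small Maf partners, with the 9 matching bases in capitals, 5′ to 3′ on the strand of the gene.
Nfe2l2, chr2:75704855-75704913, minus strand: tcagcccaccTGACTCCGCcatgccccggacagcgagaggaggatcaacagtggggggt
Mafg, chr11:120633721-120633797, minus strand: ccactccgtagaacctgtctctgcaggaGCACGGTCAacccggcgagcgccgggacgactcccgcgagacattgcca
Mafk, chr5:139791483-139791535, plus strand: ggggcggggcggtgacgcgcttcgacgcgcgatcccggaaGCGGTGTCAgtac
Maff, chr15:79346469-79346557, plus strand: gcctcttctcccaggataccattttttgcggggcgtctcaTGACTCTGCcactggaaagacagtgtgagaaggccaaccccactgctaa
The matches lie upstream of the start site, at -240 for Nfe2l2, -222 for Mafg, -13 for Mafk and -112 for Maff, counted to their first base. The start site used for Mafg lies within the annotated gene. These 4 genes did not move together: after 1 dose of PM2.5, Maff was higher and Nfe2l2, Mafg and Mafk were lower than with PBS, as given below.

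The short-term libraries stand apart from the others, and this touches every comparison with them. Their long transcripts were low: taking the median log2 difference from the PBS mean, the 10% of genes with the longest transcripts minus the 10% with the shortest gave -1.67 (replicate 1), -0.82 (replicate 2) and -1.04 (replicate 3), against -0.21 to -0.13 in the long-term and -0.059 to 0.045 in the PBS libraries. They held 12560 to 13414 genes at 1 TPM or more, the others 13534 to 13930. The median log2 fold change of all tested genes was -0.34 for short-term exposure against PBS, and between the exposures (long-term against short-term) 0.41. It was -0.05 and 0.08 with median-ratio scaling, and -0.02 and -0.03 once a trend with transcript length and GC content had been subtracted from each library. Values with this length and GC correction are therefore given beside the values as deposited. Summed levels of cell type markers, 6 genes in each of 10 lists, also differed between the groups. These sums and the calls of the markers are as deposited, without the length and GC correction. After short-term PM2.5 the neutrophil sum was 954 to 1469 TPM against 338 to 539 with PBS, with all 6 markers called higher, and the macrophage sum was 255 to 348 against 176 to 206 TPM. Of the macrophage markers, Cd68 and Itgax were called higher there. Marco (log2 fold change 0.82), Adgre1 (-0.08), Csf1r (-0.28) and Mrc1 (-0.62) were not called. Sums below PBS in every short-term library were those of fibroblasts and pericytes (446 to 558 against 1003 to 1126 TPM), alveolar type 2 cells (29764 to 35508 against 43952 to 45104), airway epithelium (107780 to 129411 against 147860 to 184334) and endothelium (3035 to 3462 against 3819 to 4127). Single markers of these lists did not all follow. Sftpa1 (alveolar type 2, log2 fold change 0.40) and Muc5b (airway epithelium, 0.67) were called higher. Sftpb, Lamp3, Abca3, Scgb1a1, Foxj1, Muc5ac, Col1a1, Cldn5, Ramp2 and Egfl7 were not called, and the rest were called lower. In this comparison 40.3% of all tested genes were called lower. With long-term PM2.5 the macrophage sum was 465 to 664 TPM, with 4 of 6 markers called higher, and the alveolar type 2 sum 45931 to 48977 TPM, both above PBS. No alveolar type 2 marker was called there. The long-term sums of endothelium (2587 to 2909 TPM), red cells (17481 to 29374 against 48742 to 73587), fibroblasts and pericytes (865 to 884), alveolar type 1 cells (5458 to 6056 against 6939 to 7899) and cardiac muscle (443 to 616 against 713 to 1060) lay below PBS. In these lists Col1a1, of fibroblasts, was called higher (log2 fold change 0.68). Called lower were Pdgfrb, Tcf21, Hopx, Myh6, Myl7, Alas2, Hba-a1, Hbb-b1 and all endothelial markers but Cldn5. No other marker of these lists was called. The other sums overlapped PBS, although single markers of these lists were called. With long-term PM2.5 the airway epithelium markers Muc5ac (log2 fold change 2.81), Muc5b (2.598) and Foxj1 (1.47) were called higher. Scgb1a1, which was not called, held 150190 to 173402 TPM of that sum of 153625 to 177214 TPM. After short-term PM2.5, Aqp5, Pdpn and Cd3d were called higher, and Hopx, Rtkn2, Cav1, Slc4a1, Myh6 and Actc1 lower. Of the 10 lists, 1 red cell marker was the only marker at 0 in any library. The part of cell makeup in the members' values was not tested, and in whole lung fewer cells of a type and less RNA per cell cannot be told apart. The part of the length trend in the marker values was not tested either.

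Among the 10 genes, long-term PM2.5 left no difference from PBS that passed the test, whereas after short-term PM2.5 Maff and Osgin1 were higher and Nfe2l2, Cul3, Bach1, Mafg and Mafk were lower. Differences were tested with limma on log2(TPM + 1) over all 3 groups, with p-values adjusted over 13991 genes and a threshold of 0.05. For long-term exposure against PBS 0 of 10 passed, and 0 had an unadjusted p under 0.05, where 11.2% of all tested genes passed (9.51% higher, 1.72% lower) and 22.1% had such an unadjusted p. For short-term exposure against PBS 7 of 10 passed (2 higher, 5 lower), where 51.9% of all tested genes passed (11.7% higher, 40.3% lower). For long-term against short-term exposure 6 of 10 passed (4 higher, 2 lower), where 50.5% passed (43.4% higher, 7.08% lower). In the comparisons with the short-term group the members were thus counted against a background in which about as many genes passed as did not. The members' median was -0.46 for short-term exposure against PBS, 0.40 for long-term against short-term exposure and 0.06 for long-term exposure against PBS. Both comparisons with PBS use the same PBS libraries, and any 2 of the 3 comparisons share a group.

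The counts depended on the setting, for the members and for all genes. Given in the order of long-term against PBS, short-term against PBS and long-term against short-term, 1, 4 and 3 of the 10 passed after the length and GC correction, where 25.8%, 49.6% and 41.6% of all genes did. With median-ratio scaling it was 1, 5 and 4 (14.1%, 52.2% and 46.6% of all genes), and with quantile normalization 1, 7 and 5 (18.0%, 51.8% and 42.7%). Fits of the 2 compared groups alone gave 2, 4 and 3 (27.7%, 39.9% and 36.0%), and fits without short-term replicate 1 gave 1, 7 and 6 (22.6%, 51.6% and 47.8%). Maff, Mafk and Osgin1 for short-term exposure against PBS, and Maff and Nfe2l2 for long-term against short-term exposure, passed in all 18 alternatives that were run. The libraries of the compared groups did not overlap for 2, 9 and 8 of the 10 genes, in the same order, and for 43.2%, 60.3% and 60.1% of all tested genes.

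**Figure D1:**
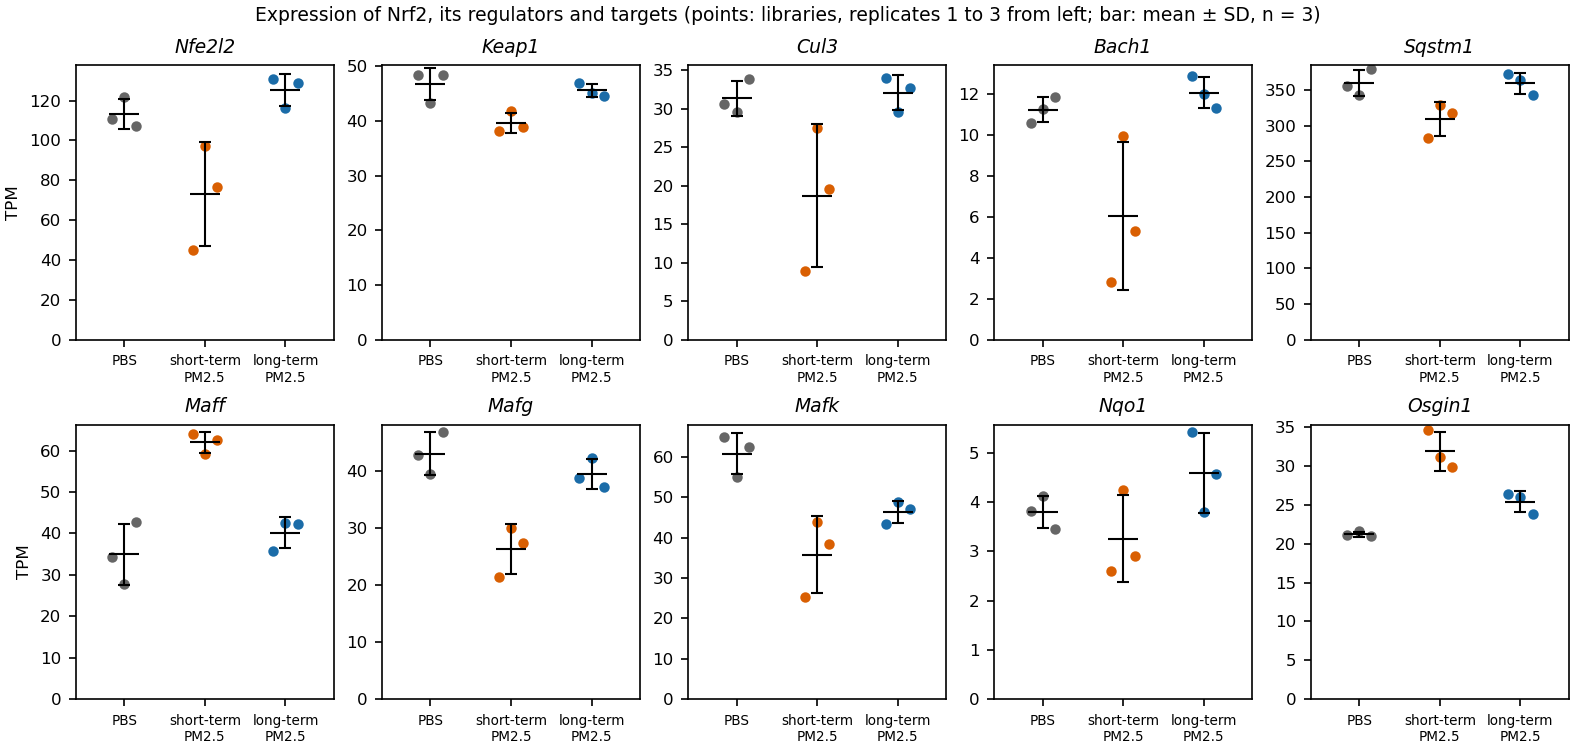
TPM of the 10 genes (y axis, from 0) in PBS, short-term PM2.5 and long-term PM2.5 libraries; points are libraries, bars are mean ± SD (n = 3). Maff and Osgin1 are highest in the short-term libraries, and short-term replicate 1 has the lowest Nfe2l2, Cul3, Bach1, Mafg and Mafk of all libraries.

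The levels of the members in PBS lungs spanned from Sqstm1 to Nqo1. Sqstm1 had 359.9 ± 18.6 TPM (mean ± SD, n = 3), Nfe2l2 113 ± 7.55, Mafk 60.9 ± 5.16, Keap1 46.7 ± 2.91, Mafg 43.0 ± 3.70, Maff 35.0 ± 7.43, Cul3 31.4 ± 2.25, Osgin1 21.2 ± 0.348, Bach1 11.2 ± 0.627 and Nqo1 3.80 ± 0.330 TPM. Keap1 and Mafg, Mafg and Maff, and Maff and Cul3 overlapped in their PBS libraries, while no other neighbours in this order overlapped. Nqo1, the quinone reductase often used to read Nrf2 activity, was thus the lowest of the 10 in whole lung. It was also the one member left out by a filter at a mean of 5 TPM.

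Nfe2l2 (gene 18024, chromosome 2, 75675513 to 75704663, minus strand) was lower after 1 dose of PM2.5 and close to PBS after 6 doses. Its TPM was 111, 122 and 107 with PBS, 45.3, 97.1 and 76.8 after short-term and 131, 116 and 129 after long-term exposure. All short-term libraries lay below all others, with replicate 1 the lowest, and the long-term libraries overlapped PBS. Its log2 fold change was -0.69 ± 0.22 (SE) for short-term exposure against PBS (adjusted p = 0.0248) and 0.84 ± 0.22 for long-term against short-term exposure (adjusted p = 0.0123). For long-term exposure against PBS it was 0.14 ± 0.22 (95% interval -0.35 to 0.64, adjusted p = 0.831). The decrease is smaller with the length and GC correction, at -0.41 (adjusted p = 0.0097), and without short-term replicate 1, at -0.39 (adjusted p = 0.0177). It did not pass with median-ratio scaling (-0.35, adjusted p = 0.073), in a fit of the 2 groups alone (adjusted p = 0.0537), or without PBS replicate 1, 2 or 3 (-0.71, -0.64 and -0.73, adjusted p = 0.061, 0.0793 and 0.0523). The difference between long-term and short-term PM2.5 passed under all 18 alternatives. There it was 0.45 with median-ratio scaling, 0.39 after the correction and 0.53 without short-term replicate 1.

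**Figure D2:**
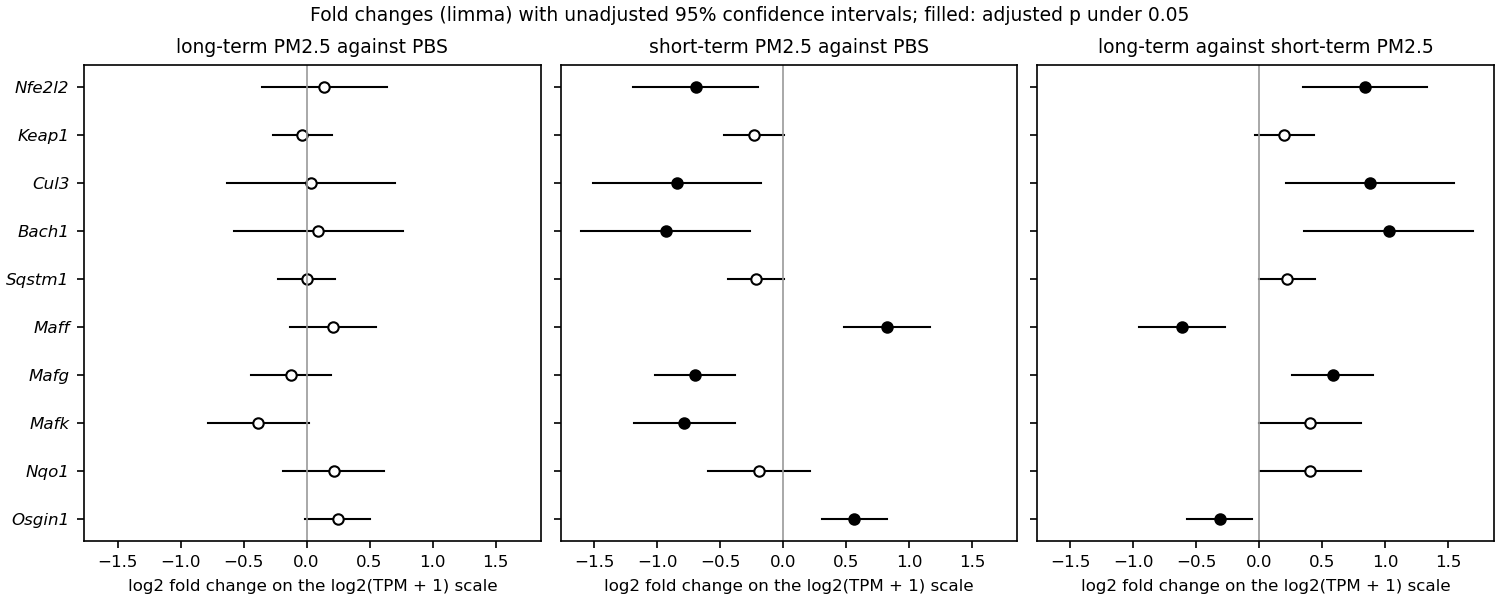
Log2 fold change of each of the 10 genes in the 3 comparisons (x axis, log2(TPM + 1) scale) with unadjusted 95% confidence intervals; filled points have an adjusted p under 0.05. Filled points number 0 for long-term exposure against PBS, 7 for short-term exposure against PBS and 6 between the exposures.

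Of the proteins that restrain Nrf2, Keap1 did not pass the test in any comparison, and Cul3 and Bach1 were lower after short-term PM2.5 only before the length correction. Keap1 (gene 50868, chromosome 9, 21229730 to 21239332, minus strand), the substrate adaptor of the ligase, had 48.4, 43.3 and 48.3 TPM with PBS, 38.2, 41.7 and 38.9 TPM with short-term PM2.5 and 47.0, 45.2 and 44.5 TPM with long-term PM2.5. The short-term libraries were all a little lower, and the long-term values lay within the range of PBS. Its log2 fold change was -0.23 ± 0.11 for short-term exposure against PBS (adjusted p = 0.0911), 0.20 ± 0.11 for long-term against short-term exposure (adjusted p = 0.139) and -0.03 ± 0.11 for long-term exposure against PBS (adjusted p = 0.934). The sign of both comparisons with the short-term group turned with other scalings. For short-term exposure against PBS it became 0.11 with median-ratio scaling and 0.12 after the length and GC correction, neither passing the test.

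Cul3 (gene 26554, chromosome 1, 80264923 to 80340690, minus strand) encodes the scaffold of the ligase. It had 30.7, 29.6 and 33.9 TPM with PBS, 8.98, 27.6 and 19.6 TPM with short-term PM2.5 and 34.1, 29.6 and 32.7 TPM with long-term PM2.5. The 3 short-term libraries were below all PBS and long-term libraries but differed widely among themselves, with replicate 2 near PBS. The log2 fold change of -0.84 ± 0.30 for short-term exposure against PBS (adjusted p = 0.0379) was lost in 13 of 18 alternatives, and that of 0.87 ± 0.30 for long-term against short-term exposure (adjusted p = 0.034) in 12. After the length and GC correction they were -0.14 (adjusted p = 0.324) and 0.13 (adjusted p = 0.382). Without short-term replicate 1 they were -0.42 and 0.45 and still passed (adjusted p = 0.0295 and 0.023). Leaving out any PBS or long-term library, or short-term replicate 3, ended the call against PBS, with values from -0.94 to -0.79 (adjusted p from 0.0521 to 0.102). The call between the exposures ended without any long-term library, PBS replicate 1 or 2, or short-term replicate 3 (0.83 to 0.97, adjusted p from 0.0503 to 0.0931). Long-term PM2.5 against PBS gave 0.03 ± 0.30 (adjusted p = 0.975).

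Bach1 (gene 12013, chromosome 16, 87698954 to 87733346, plus strand), the repressor, had 10.6, 11.3 and 11.8 TPM with PBS, 2.81, 9.94 and 5.33 TPM with short-term PM2.5 and 12.9, 12.0 and 11.3 TPM with long-term PM2.5. Its short-term libraries also lay below the other 6, with replicate 1 lowest and replicate 2 close to PBS, as for Cul3. Its change was -0.93 ± 0.30 for short-term exposure against PBS (adjusted p = 0.0259), 1.02 ± 0.30 for long-term against short-term exposure (adjusted p = 0.0186) and 0.09 ± 0.30 for long-term exposure against PBS (adjusted p = 0.934). After the length and GC correction the first was -0.15 (adjusted p = 0.385) and the second 0.23 (adjusted p = 0.199). Bach1 has the longest transcript of the 10 members, 5867 bases, and Cul3 has 4709. Without short-term replicate 1 the decrease was -0.56 (adjusted p = 0.0319), and without any 1 PBS library or short-term replicate 3 it did not pass (-0.97 to -0.90, adjusted p from 0.0595 to 0.0729). The difference between long-term and short-term PM2.5 was 0.65 without short-term replicate 1 and did not pass without long-term replicate 1 (0.98, adjusted p = 0.0598).

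**Figure D3:**
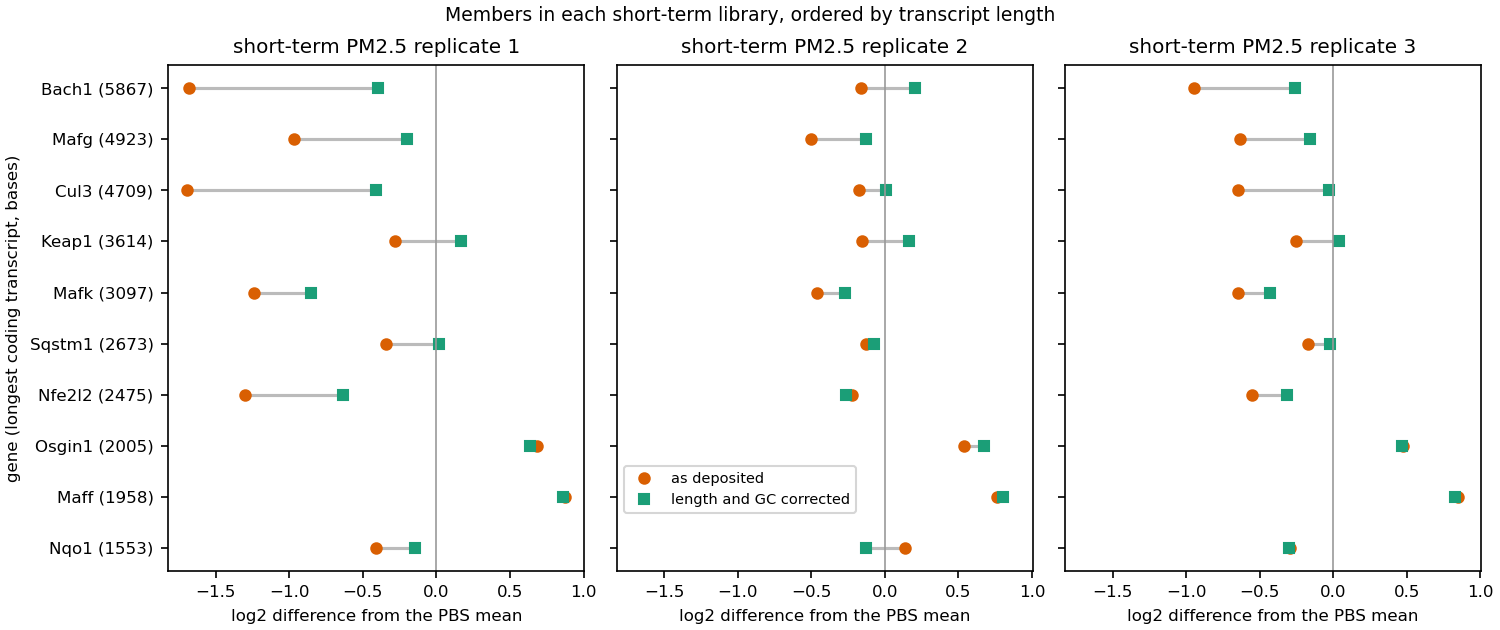
Log2 difference of each gene from the PBS mean (x axis) in the 3 short-term libraries, with genes ordered from the longest (Bach1, 5867 bases) to the shortest transcript (Nqo1, 1553 bases); circles are values as deposited, squares are values corrected for length and GC content. In replicate 1 the correction moves Bach1 and Cul3 most, while Maff and Osgin1 lie between 0.47 and 0.88 in all 3 libraries with or without it.

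The ratio of Nfe2l2 to Keap1 transcripts was 2.29, 2.82 and 2.22 in the PBS libraries, 1.18, 2.33 and 1.98 in the short-term libraries and 2.79, 2.57 and 2.89 in the long-term libraries. Short-term values overlapped PBS, and long-term values were above all short-term values. The difference in log2 ratio was -0.47 for short-term exposure against PBS and 0.18 for long-term exposure against PBS (two-sided exact permutation p = 0.3 each). The exposures differed by 0.64 (exact permutation p = 0.1). Both differences that involve the short-term group were smaller without short-term replicate 1, at -0.18 for short-term exposure against PBS and 0.36 between the exposures. Leaving out each PBS or long-term library in turn, the long-term difference from PBS lay between 0.11 and 0.28, and it was 0.012 after the length and GC correction. With 3 libraries against 3 the smallest p this test can give is 0.1, so it cannot pass 0.05.

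Sqstm1 (gene 18412, chromosome 11, 50200152 to 50210820, minus strand), the autophagy adaptor that binds Keap1 and is itself a target of Nrf2, was the most abundant member and moved little. It had 356, 343 and 380.1 TPM with PBS, 283, 329 and 318 TPM with short-term PM2.5 and 372, 364 and 343 TPM with long-term PM2.5. The short-term libraries were the 3 lowest, and long-term and PBS libraries overlapped. It changed by -0.22 ± 0.10 (log2) for short-term exposure against PBS (adjusted p = 0.0939) and 0.22 ± 0.10 for long-term against short-term exposure (adjusted p = 0.0944). Mean levels were 359.9 TPM with PBS and 359.8 TPM after long-term exposure. Both comparisons with the short-term group passed with quantile normalization (-0.36 and 0.34, adjusted p = 0.00681 and 0.0124), and with median-ratio scaling they had the opposite sign (0.13 and -0.17).

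The small Maf genes moved in opposite directions after 1 dose: Maff rose, and Mafg and Mafk fell. Small Mafs are short bZIP proteins with a DNA-binding domain and no activation domain of their own, and they pair with Nrf2, its relatives and the Bach proteins. Maff (gene 17133, chromosome 15, 79346621 to 79359078, plus strand) had 34.3, 27.9 and 42.7 TPM with PBS, 64.1, 59.2 and 62.7 TPM with short-term PM2.5 and 35.8, 42.5 and 42.2 TPM with long-term PM2.5. Its short-term libraries were close to each other and above all others, and the long-term values lay within the range of PBS. Maff rose by 0.83 ± 0.15 (log2) for short-term exposure against PBS (adjusted p = 0.00212) and had -0.62 ± 0.15 for long-term against short-term exposure (adjusted p = 0.00938). Both passed under all 18 alternatives. With median-ratio scaling the second was -1.0, and after the length and GC correction they were 0.83 and -0.72. Long-term PM2.5 against PBS gave 0.21 ± 0.15 (adjusted p = 0.529).

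Mafg (gene 17134, chromosome 11, 120625117 to 120634955, minus strand) had 42.7, 39.4 and 46.8 TPM with PBS, 21.4, 30 and 27.3 TPM with short-term PM2.5 and 38.7, 42.3 and 37.2 TPM with long-term PM2.5. The short-term libraries lay below all others, and the long-term libraries overlapped PBS. Its log2 fold change was -0.70 ± 0.14 for short-term exposure against PBS (adjusted p = 0.00331) and 0.58 ± 0.14 for long-term against short-term exposure (adjusted p = 0.00906), with -0.12 ± 0.14 for long-term exposure against PBS (adjusted p = 0.746). The first was -0.36 with median-ratio scaling (adjusted p = 0.0123), where the second was 0.20 and did not pass (adjusted p = 0.116). Neither passed after the length and GC correction, at -0.16 (adjusted p = 0.11) and 0.04 (adjusted p = 0.678). The Mafg transcript, at 4923 bases, is the second longest of the members.

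Mafk (gene 17135, chromosome 5, 139791536 to 139802653, plus strand) was the only member lower in every library of both PM2.5 groups than in every PBS library. It had 65.1, 55.1 and 62.5 TPM with PBS, 25.2, 43.9 and 38.3 TPM with short-term PM2.5 and 43.5, 48.9 and 47.1 TPM with long-term PM2.5. For short-term exposure against PBS the log2 fold change was -0.78 ± 0.18 (adjusted p = 0.00603). It passed under all 18 alternatives, at -0.44 with median-ratio scaling and -0.52 after the length and GC correction. For long-term exposure against PBS it was -0.38 ± 0.18 (95% interval -0.79 to 0.02, adjusted p = 0.259). That difference passed in 6 of 18 alternatives, among them the fit of these 2 groups alone (adjusted p = 0.0101), the length and GC correction (-0.44, adjusted p = 0.0318) and the fit without short-term replicate 1 (adjusted p = 0.017). Mafk and Osgin1 were the 2 members without overlap between long-term PM2.5 and PBS. Between the exposures Mafk had 0.40 ± 0.18 (adjusted p = 0.087). This was 0.17 without short-term replicate 1 (adjusted p = 0.213), 0.56 without short-term replicate 2 (adjusted p = 0.0127), 0.022 with median-ratio scaling, 0.11 with quantile normalization and 0.082 after the length and GC correction.

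**Figure D4:**
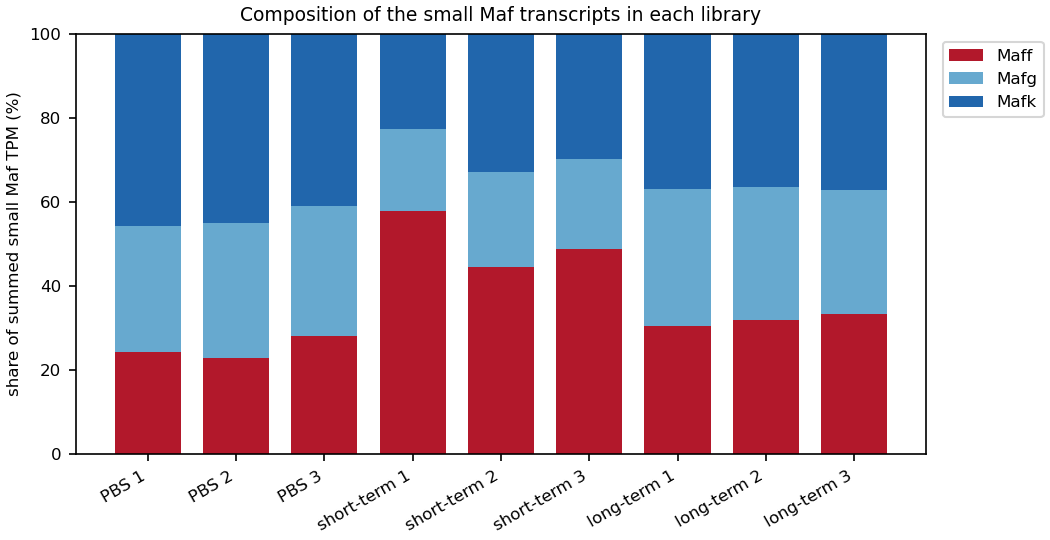
Share of Maff, Mafg and Mafk in the summed TPM of the 3 genes (y axis, %) in each library. Maff takes 22.8 to 28.1% with PBS, 44.5 to 57.9% with short-term PM2.5 and 30.4 to 33.4% with long-term PM2.5.

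The sum of the 3 small Maf genes changed less than its composition. It was 142, 122 and 152 TPM with PBS, 111, 133 and 128 TPM with short-term PM2.5 and 118, 134 and 126 TPM with long-term PM2.5, with the groups overlapping. Maff made up 25.0 ± 2.76% of it with PBS, 50.4 ± 6.83% with short-term PM2.5 and 31.8 ± 1.5% with long-term PM2.5 (SD, n = 3). No group overlapped another in this share. The differences were 25.4 percentage points for short-term exposure against PBS, 6.84 for long-term exposure against PBS, and between the exposures (long-term against short-term) -18.6. Each had an exact permutation p = 0.1, the smallest that 3 libraries against 3 allow. After the length and GC correction and quantile normalization, and without each library in turn, the direction of all 3 stayed the same. With the length and GC correction they were smaller, at 19.2, 6.06 and -13.2 percentage points in the same order.

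The direct targets among the members differed: Osgin1 was higher after short-term PM2.5, and Nqo1 passed in no comparison. Osgin1 (gene 71839, chromosome 8, 119425882 to 119446257, plus strand), an oxidative stress induced growth inhibitor, had 21.1, 21.6 and 20.9 TPM with PBS, 34.7, 31.2 and 29.9 TPM with short-term PM2.5 and 26.3, 26.0 and 23.9 TPM with long-term PM2.5. The 3 groups did not overlap, with long-term PM2.5 between PBS and short-term PM2.5. Osgin1 changed by 0.56 ± 0.12 for short-term exposure against PBS (adjusted p = 0.00346), and it passed under all 18 alternatives, at 0.91 with median-ratio scaling and 0.59 after the length and GC correction. Against PBS, long-term exposure gave 0.25 ± 0.12 (adjusted p = 0.245) and passed in the fit of the 2 groups alone (adjusted p = 0.0371). Between the exposures it was -0.32 ± 0.12 (adjusted p = 0.0435). That call ended in 9 of 18 alternatives, among them the fits without any 1 PBS library, any 1 long-term library or short-term replicate 3 (-0.36 to -0.27, adjusted p from 0.0556 to 0.142), while the corrected value was -0.40 (adjusted p = 0.00824).

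Nqo1 (gene 18104, chromosome 8, 107388225 to 107403205, minus strand) had 3.82, 4.12 and 3.46 TPM with PBS, 2.61, 4.26 and 2.91 TPM with short-term PM2.5 and 5.43, 3.80 and 4.57 TPM with long-term PM2.5. All 3 groups overlapped. On the log2 scale it had 0.21 ± 0.18 for long-term exposure against PBS (95% interval -0.19 to 0.61, adjusted p = 0.613), -0.19 ± 0.18 for short-term exposure against PBS (adjusted p = 0.394) and 0.40 ± 0.18 for long-term against short-term exposure (adjusted p = 0.0842). Without short-term replicate 2 the last was 0.57 and passed (adjusted p = 0.0119), and after the length and GC correction it was 0.18. TPM keeps no read number, so the counting error at this low level is unknown.

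Other target genes of Nrf2 moved in both directions. The list holds 43 textbook targets, 41 of them tested. With long-term exposure against PBS 12 were higher and 2 lower, and 27 did not pass, where 9.51% of all tested genes were higher and 1.72% lower. Their median was 0.29 against 0.03 over all tested genes. With short-term exposure against PBS 15 were higher and 12 lower, where 11.7% of all genes were higher and 40.3% lower, with a median of -0.03 against -0.34. After the length and GC correction the targets had 13 higher and 6 lower for long-term exposure against PBS (all genes 13.0% and 12.8%), and 16 higher and 8 lower for short-term exposure against PBS (all genes 23.6% and 26.0%). Between the exposures (long-term against short-term) 17 were higher and 4 lower as deposited (all genes 43.4% and 7.08%). There it was 8 higher and 13 lower with median-ratio scaling (all genes 26.9% and 19.7%), and 10 of each after the correction (all genes 19.3% and 22.3%). Of the tested targets 2 passed the filter on low values without reaching 1 TPM in any library of 1 group, Slc7a11 (PBS) and the glutathione S-transferase gene Gsta1 (long-term PM2.5). Without them 39 were left, with 11 higher and 1 lower for long-term and 14 higher and 12 lower for short-term exposure against PBS. Between the exposures, the number passing without long-term replicate 1 or 3 was 13 in place of 21. The count for long-term exposure against PBS depends on single libraries. It was 7 or 8 without any 1 PBS or long-term library, 24 without short-term replicate 1, and 26 in the fit of the 2 groups alone. The share of all genes passing also rose in the last 2 settings, to 22.6% and 27.7%, from 11.2% with all libraries and groups. For the fits without a PBS or long-term library that share was not counted.

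Hmox1, which encodes haem oxygenase 1 and is repressed by Bach1, had 37.0, 44.8 and 42.7 TPM with PBS, 172, 149 and 142 TPM with short-term PM2.5 and 85.5, 70.0 and 60.4 TPM with long-term PM2.5. The 3 groups did not overlap. Its log2 fold change was 1.87 ± 0.15 for short-term exposure against PBS (adjusted p = 2.8e-05), 0.77 ± 0.15 for long-term exposure against PBS (adjusted p = 0.00665) and -1.10 ± 0.15 for long-term against short-term exposure (adjusted p = 0.0005), all kept under all 18 alternatives. Slc7a11, the cystine transporter that feeds glutathione synthesis, passed the filter only through the PM2.5 groups, where it is high. It had 0.430, 0.380 and 0.520 TPM with PBS, 1.39, 3 and 1.88 TPM with short-term PM2.5 and 2.75, 2.09 and 1.36 TPM with long-term PM2.5. Both PM2.5 groups were above PBS in every library, by 1.07 for short-term PM2.5 (adjusted p = 0.00294) and 1.06 for long-term PM2.5 (adjusted p = 0.00881) on the log2(TPM + 1) scale. With no filter, over all genes, the adjusted p was 0.00533 and 0.014. That scale understates changes at such low levels, and with a pseudocount of 0.1 both were 1.95.

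The enzymes of glutathione synthesis followed different patterns. Gclc, the catalytic subunit of glutamate-cysteine ligase, had 47.9, 53.8 and 51.4 TPM with PBS, 22.8, 60.4 and 43.1 TPM with short-term PM2.5 and 88.6, 80.6 and 85.9 TPM with long-term PM2.5. Every long-term library was above every other library, yet the difference from PBS, 0.73, had an adjusted p of 0.13. It passed in the fit of the 2 groups alone (adjusted p = 0.000218) and without short-term replicate 1 (adjusted p = 0.00152) or replicate 2 (adjusted p = 0.0232). In these fits the short-term libraries do not all enter the shared estimate of spread, and whether that accounts for the calls was not tested. Gclm, the modifier subunit, had 53.5, 50.8 and 51.8 TPM with PBS, 17.6, 30.1 and 26.4 TPM with short-term PM2.5 and 48.7, 53.9 and 49.6 TPM with long-term PM2.5. It was lower after short-term PM2.5 by a log2 fold change of -1.08 (adjusted p = 0.00108), for which the corrected value was -0.31 (adjusted p = 0.0368), and its long-term libraries overlapped PBS.

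**Figure D5:**
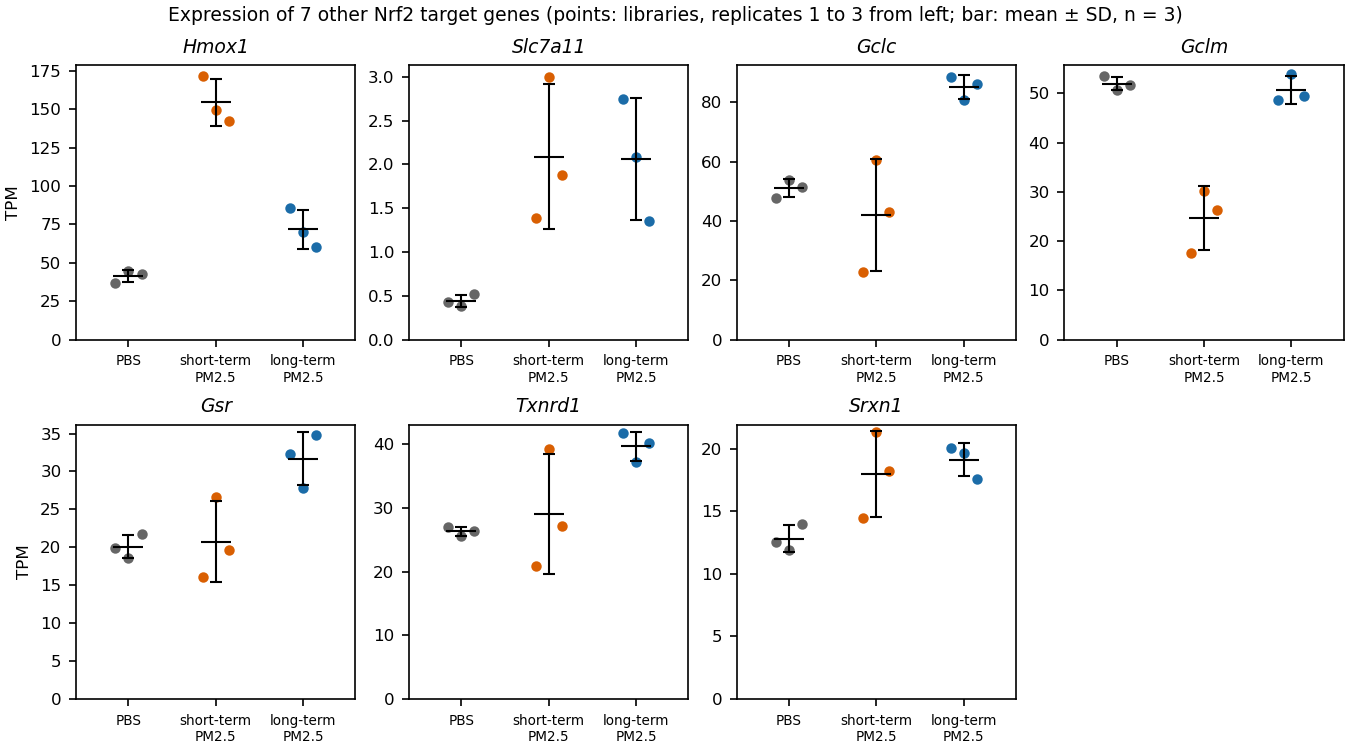
TPM of 7 other Nrf2 target genes (y axis, from 0) in PBS, short-term PM2.5 and long-term PM2.5 libraries; points are libraries, bars are mean ± SD (n = 3). Hmox1 is highest with short-term PM2.5 (142 to 172 TPM), and Gclc is highest with long-term PM2.5 (80.6 to 88.6 TPM).

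Of the other redox enzymes, glutathione reductase (Gsr) had a log2 fold change of 0.63 for long-term exposure against PBS (adjusted p = 0.047). That call ended in 11 of 18 alternatives, among them the fits without any 1 PBS or long-term library or short-term replicate 3 (0.56 to 0.72, adjusted p from 0.0745 to 0.169). Thioredoxin reductase 1 (Txnrd1) had 0.57 (adjusted p = 0.0914) and sulfiredoxin (Srxn1) 0.54 (adjusted p = 0.0527), and both passed in the fit of the 2 groups alone (adjusted p = 0.000735 and 0.00262). Without short-term replicate 1 or 2 they also passed (Txnrd1 adjusted p = 0.00735 and 0.00953, Srxn1 0.00441 and 0.0192). The 2 targets with the smallest p for long-term PM2.5 were Ptgr1, prostaglandin reductase 1 (1.13, adjusted p = 0.00168), and Akr1b8, an aldo-keto reductase (0.88, adjusted p = 0.00245). Among the targets that fell after short-term PM2.5 against PBS were Gsta2, a glutathione S-transferase gene (-1.99, adjusted p = 4.99e-05), and the aldehyde dehydrogenase gene Aldh3a1 (-0.80, adjusted p = 0.00115). Aldh3a1 had 1.07 for long-term against short-term exposure (adjusted p = 0.000318). Both Aldh3a1 calls were kept in all 18 alternatives. The short-term difference from PBS ranged there from -0.87 to -0.37, with a highest adjusted p of 0.0499. The difference between the exposures ranged from 0.61 to 1.13 (highest adjusted p = 0.00793).

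In the 4 lists of genes that act on Nrf2, Keap1 or Sqstm1, no gene passed for long-term exposure against PBS. The numbers with an unadjusted p under 0.05 there were 3 of 16, 0 of 7, 0 of 11 and 1 of 15, in the order of the lists below, where 11.2% of all genes passed and 22.1% had such an unadjusted p. Without short-term replicate 1 the numbers passing were 2, 0, 1 and 1 (22.6% of all genes), without replicate 2 the first was 1, and in the fit of the 2 groups alone they were 4, 0, 3 and 2 (27.7% of all genes). For the other parts of the Keap1-Cul3 ligase and further proteins that act on Keap1 or Nrf2 (16 genes), 6 were higher and 5 lower with short-term exposure against PBS. Of all genes 11.7% were higher and 40.3% lower there. The median was -0.13, and -0.33 without Palb2, which reached 1 TPM in no PBS library, against -0.34 over all genes. They included Mcm3, a replication helicase subunit (1.02, adjusted p = 0.00153), and Cdkn1a, the cell cycle inhibitor p21 (0.96, adjusted p = 0.00332). Both kept their call in all 18 alternatives. Nedd8, the modifier that activates cullins, had -0.39 for long-term against short-term exposure (adjusted p = 0.0104), and Cand1, which exchanges cullin adaptors, 0.84 (adjusted p = 0.0143). Neither passed after the length and GC correction (-0.19 and -0.05), and without long-term replicate 1 Cand1 had 0.78 (adjusted p = 0.0542).

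Nrf2 can also be marked for degradation without Keap1, by the kinase Gsk3 and the ligase adaptor beta-TrCP (Btrc). Of 7 genes on this route, Gsk3b (-0.78, adjusted p = 0.00924) and Btrc (-0.54, adjusted p = 0.0141) were lower with short-term PM2.5 than with PBS, and 0 were higher. Of all tested genes 40.3% were lower and 11.7% higher. After the length and GC correction Gsk3b and Btrc had 0.14 and -0.14 and did not pass, and without PBS replicate 1 Btrc had -0.47 (adjusted p = 0.0665). With the correction 1 of the 7 was higher and 0 lower, where 23.6% of all genes were higher and 26.0% lower. Between the exposures 2 were higher and 0 lower as deposited (all genes 43.4% and 7.08%). After the correction 0 were higher and 2 lower there (all genes 19.3% and 22.3%). Of 11 relatives and nuclear partners of Nrf2, 9 were lower and 0 higher with short-term PM2.5 as deposited, with a median of -0.90, where 40.3% of all genes were lower with a median of -0.34. After the correction 4 were lower, with a median of -0.16, where 26.0% of all genes were lower with a median of -0.02. The acetyltransferase genes Crebbp (-1.02, adjusted p = 0.000836) and Ep300 (-1.69, adjusted p = 0.00112) were among the 9, and after the correction they had -0.16 (adjusted p = 0.146) and -0.84 (adjusted p = 0.00118). Bach2, a relative of Bach1, had -0.94 (adjusted p = 0.0025) as deposited and -0.03 corrected, and Nfe2l1, a relative of Nrf2, -0.34 (adjusted p = 0.043) and 0.17. The Nfe2l1 call also ended without any 1 library other than short-term replicate 2 (-0.37 to -0.21, adjusted p from 0.0624 to 0.113). Between the exposures Nfe2l3 had 1.52 (adjusted p = 0.00109) and Rxra, a nuclear receptor that binds Nrf2, 0.68 (adjusted p = 0.00272), the latter 0.18 corrected.

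Among 15 partners of Sqstm1 in selective autophagy, 1 was higher and 6 were lower with short-term exposure against PBS (median -0.47), close to the 40.3% of all genes that were lower. Between the exposures 6 were higher and 1 lower (median 0.41), where 43.4% of all genes were higher with the same median of 0.41. The autophagy receptor gene Calcoco1 had -1.27 (adjusted p = 0.00022) and 1.02 (adjusted p = 0.000637) in these comparisons. Wdfy3, a very large adaptor of aggregate clearance, had -1.64 (adjusted p = 0.000853) and 1.25 (adjusted p = 0.00365), and -0.77 and 0.42 after the length and GC correction, where all these values still passed. The number of partners passing between the exposures was 7 as deposited and 4 after the correction, where 50.5% and 41.6% of all genes passed. It was 11 without short-term replicate 2, where the share of all genes was not counted.

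The genes whose pattern over the 9 libraries was most like that of Nfe2l2 were Dnajc13, Mansc1 and Kifap3, with a root mean square difference of 0.043, 0.045 and 0.045 in log2(TPM + 1) centred on the mean of each gene. For Osgin1 they were Cdk4 (0.047), Shkbp1 (0.051) and Shmt2 (0.053), and for Nqo1 Ash2l (0.067), Tbpl1 (0.071) and Itgb3 (0.071). Candidates were the tested genes with a mean of at least 5 TPM, leaving out those named as predicted genes, clones, RIKEN genes or pseudogenes. The 9 libraries share the differences between groups and the length trend described above.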

How the data were processed

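Whole lung mRNA was selected with oligo(dT) beads, treated with a duplex-specific nuclease step (DSN), and sequenced on DNBSEQ, per the labels' protocols. The authors deposited 1 table of TPM values for 18875 genes and 9 libraries. The submitters' processing notes list RSEM, Bowtie2, HISAT2 and DESeq2 without saying which step each did, and name the build GRCm38.p6 for 8 of 9 samples. TPM keeps no read number, so the depth is unknown and no count test or counting interval is given.

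The deposited TPM values were taken as log2(TPM + 1), so fold changes understate those of low genes. Genes reaching 1 TPM in 3 or more libraries were kept (13991, leaving out 4884). All 3 groups entered 1 fit by limma 3.58.1 (R 4.3.3) with an intensity trend and 6 residual degrees of freedom, tested two-sided and Benjamini-Hochberg adjusted, at a threshold of 0.05. The length and GC correction subtracts natural splines (5 degrees of freedom each) in the length of the longest coding transcript and its GC content, fitted to each library's difference from the mean, for 13770 genes with a length. The 18 alternatives were that correction, the replicate number as a block, both together, a pseudocount of 0.1, no filter, a mean of at least 5 TPM, fits restricted to the compared pair of groups, median-ratio scaling, quantile normalization, and leaving out each of 9 libraries. Fits were tested on simulated data, and Python 3.11.15 was used for annotation, motif search and figures.

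Named are all 10 members, Hmox1, Gclc, Gclm, Slc7a11, Txnrd1, Srxn1, Gsr, Nfe2l1 and Bach2, and the 2 genes with the smallest p in each list and comparison where they passed. One listed gene, Skp1a, was matched as Skp1. The members and lists were chosen with earlier results of these data known.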

Additional observations from a re-analysis of the deposited data

How the results depend on the processing

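The number of members passing the test for long-term PM2.5 against PBS was 0 as deposited, 1 with median-ratio scaling, quantile normalization, the length and GC correction, or that correction with a replicate block, and 2 in the fit of the 2 groups alone; without each library in turn it was 0 to 1. For short-term PM2.5 against PBS it was 7, and 4 in the fit of the 2 groups alone, with the correction, and with the correction and block, and 4 to 7 without each library in turn, with 4 without PBS replicate 1, 2 or 3. Between the exposures (long-term against short-term) it was 6, and 3 under the same settings, and 3 to 8 without each library in turn, with 3 without long-term replicate 1 and 8 without short-term replicate 2. With the replicate block alone the counts were 0, 7 and 5. Among the fits without 1 library, the share of all genes passing was counted only for that without short-term replicate 1. The other counts without 1 library therefore have no background beside them. Replicate numbers carry no stated pairing, and the correlation of deviations between same-numbered libraries ran from -0.286 to 0.262, so the block is given only here. The split of all genes for short-term PM2.5 against PBS was 1632 higher and 5636 lower as deposited, 3421 and 3885 with median-ratio scaling, 3466 and 3783 with quantile normalization and 3252 and 3581 with the correction. Between the exposures it was 6070 and 991, then 3762 and 2756, 3012 and 2956, and 2658 and 3076. Of 537 alternative values of the members, 437 kept direction and side of the threshold, 56 lost the call, 11 gained it and 33 changed sign.

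Changes of sign, in log2 fold change, were these, and the cause was not tested. Against PBS with long-term PM2.5, the correction, with or without the block, gave -0.018 for Nfe2l2, -0.011 for Cul3, -0.12 for Sqstm1 and -0.014 for Nqo1; median-ratio scaling gave -0.0042 for Cul3 and -0.038 for Sqstm1; quantile normalization gave -0.0056 for Bach1 and -0.021 for Sqstm1. Leaving out 1 library gave -0.010 to 0.088 for Cul3 and -0.033 to 0.040 for Sqstm1. Against PBS with short-term PM2.5, median-ratio scaling gave 0.11 for Keap1, 0.13 for Sqstm1, 0.080 for Nqo1 and 0.010 for Nfe2l1; quantile normalization gave 0.0092 for Keap1 and 0.24 for Nqo1; the correction, with or without the block, gave 0.12 for Keap1, 0.17 for Nfe2l1, 0.14 for Gsk3b and 0.078 for Gclc. Leaving out 1 library gave -0.68 to 0.0016 for Gclc, -0.16 to 0.18 for Gsr and -0.14 to 0.30 for Txnrd1. Between the exposures, median-ratio scaling gave -0.18 for Keap1, -0.17 for Sqstm1, -0.10 for Nfe2l1 and -0.27 for Srxn1; quantile normalization gave -0.050 for Keap1, -0.21 for Nqo1, -0.16 for Btrc and -0.33 for Srxn1. The correction, with or without the block, gave -0.15 for Keap1, -0.092 for Sqstm1, -0.23 for Bach2, -0.077 for Btrc, -0.045 for Cand1, -0.14 for Gsk3b, -0.24 for Nfe2l1, -0.25 for Srxn1 and -0.062 for Txnrd1. Leaving out 1 library gave -0.17 to 0.20 for Slc7a11 and -0.044 to 0.22 for Srxn1. All alternatives run for the Maff share and the Nfe2l2 to Keap1 ratio kept the direction.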
